A study of Mus musculus with 12 samples.

Results

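The nuclear genes that encode subunits of the mitochondrial oxidative phosphorylation complexes were followed across 4 groups of mouse adipose tissue. The genes were chosen by symbol alone, as protein-coding genes named as Nduf (a, b, c, s or v), Sdh, Uqcr, Cyc1, Cycs, the widely expressed Cox subunits, or Atp5. Of 55536 gene identifiers in the count tables, 79 met the rule. The second of 2 identifiers for Atp5o held 0 counts, which left 78 genes, and all 78 passed the filter on low counts in every comparison. They comprise 37 genes of complex I, 4 of complex II, 9 of complex III, cytochrome c (Cycs), 10 of complex IV and 17 of complex V. The names carry a few genes that lie at the edge of the family: Ndufa4 is named for complex I but is now regarded as a complex IV subunit, Ndufa4l2 is its hypoxia-induced paralogue, and Atp5s encodes a coupling factor of the ATP synthase, not a subunit.

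The libraries came from the brown fat (brown adipose tissue, BAT) and the inguinal white fat (IWAT) of C57BL/6 mice, with 3 libraries in each of 4 groups. The WT-NC mice were wild type and ate normal chow, and the KI-HFD mice carried the genotype labelled Adv-CGRPalpha+/- and ate a high-fat diet. CGRP is calcitonin gene-related peptide, a neuropeptide of sensory neurons, and the series asked how neurons that express it act on thermogenesis and obesity. What the allele does, which promoter drives it and the age of the mice are not given in the sources used here. Genotype and diet changed together, so their effects cannot be told apart. The labels do not say that each library is a different animal, and p-values measure only the spread between these libraries. Tissue was sequenced in bulk, so fewer cells of a type and less RNA per cell cannot be told apart.

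Oxidative phosphorylation passes electrons from NADH through complex I, or from succinate through complex II, to ubiquinone. From there they move through complex III and cytochrome c to complex IV, which reduces oxygen, and the protons pumped on the way drive complex V, the ATP synthase. Brown adipocytes are packed with mitochondria and carry the uncoupling protein Ucp1, which lets protons flow back without ATP being made. Rodent brown fat is known for a large respiratory chain beside little ATP synthase, a shortage that has been linked to low expression of Atp5g1, a gene for the membrane-ring subunit c.

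Each library held 17408621 to 23514095 counts on genes. Calca, the gene for CGRP alpha, had 0 to 25 counts per library, too few to check the genotype label. Summed levels of 12 brown adipocyte markers were 8525 to 17530 CPM (gene counts relative to the scaled library size) in BAT and 136 to 253 CPM in IWAT, where 1 of the 12 was at 0 in every library. Several libraries stood apart. A list of 21 skeletal muscle genes, all of them detected in BAT, summed to 25100, 85470 and 800.5 CPM in BAT WT-NC libraries 1 to 3 and to 21410, 15470 and 2981 CPM in BAT KI-HFD libraries 1 to 3, against 64.1 to 1262 CPM in IWAT. The 9 lymphocyte genes summed to 962 CPM in IWAT KI-HFD library 3 and to at most 109 CPM elsewhere. BAT WT-NC library 3 and BAT KI-HFD library 1 had 5.30% and 4.99% of their deposited tallies outside any gene, against 7.64% to 11.6% in the other BAT libraries, and short subunit genes were low in both (described at the end).

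Promoters are printed for 6 genes on which the results below turn: 3 genes that were much higher in BAT than in IWAT (Cox7b, Cox5a and Cycs), Uqcrc1, whose BAT KI-HFD libraries lay above the WT-NC libraries, Sdhd, for which those groups met at nearly the same level, and Atp5g3, which was not called between depots. Each is 280 bases, from 250 before to 30 after the start of transcription, taken from RefSeq on GRCm38.p6 and written 5′ to 3′ on the strand of the gene. Capitals mark matches to any of 5 motifs, searched on both strands: an ERR element TCAAGGTCA, NRF1 (GCGCA and GCGC around 1 free base), ETS (GABP) CCGGAAG, CRE TGACGTCA and the YY1 core AAGATGGCG.
Cox7b promoter, chrX:106015450-106015729, plus strand: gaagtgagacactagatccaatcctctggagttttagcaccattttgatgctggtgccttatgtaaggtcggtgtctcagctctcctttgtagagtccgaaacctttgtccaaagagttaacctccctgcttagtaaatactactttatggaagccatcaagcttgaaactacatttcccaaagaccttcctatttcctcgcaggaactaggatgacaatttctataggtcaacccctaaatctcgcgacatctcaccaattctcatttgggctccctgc
Cox5a promoter, chr9:57520982-57521261, plus strand: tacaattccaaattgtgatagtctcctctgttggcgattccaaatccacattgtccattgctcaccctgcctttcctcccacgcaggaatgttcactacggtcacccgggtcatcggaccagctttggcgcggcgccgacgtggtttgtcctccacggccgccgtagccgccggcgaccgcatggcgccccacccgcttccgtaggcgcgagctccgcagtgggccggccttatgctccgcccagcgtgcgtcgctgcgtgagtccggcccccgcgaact
Cycs promoter, chr6:50566540-50566819, minus strand: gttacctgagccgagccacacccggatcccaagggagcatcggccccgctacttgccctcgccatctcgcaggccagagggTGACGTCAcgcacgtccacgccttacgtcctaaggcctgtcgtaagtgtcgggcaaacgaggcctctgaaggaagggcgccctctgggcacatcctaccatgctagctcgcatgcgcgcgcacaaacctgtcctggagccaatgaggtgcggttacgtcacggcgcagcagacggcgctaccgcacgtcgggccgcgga
Uqcrc1 promoter, chr9:108936398-108936677, plus strand: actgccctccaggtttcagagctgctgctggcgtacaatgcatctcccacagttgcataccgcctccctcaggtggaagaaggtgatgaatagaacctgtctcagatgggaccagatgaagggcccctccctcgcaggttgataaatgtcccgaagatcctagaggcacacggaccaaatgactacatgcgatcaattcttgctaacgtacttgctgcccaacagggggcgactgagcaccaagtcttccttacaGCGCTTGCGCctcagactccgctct
Sdhd promoter, chr9:50603820-50604099, minus strand: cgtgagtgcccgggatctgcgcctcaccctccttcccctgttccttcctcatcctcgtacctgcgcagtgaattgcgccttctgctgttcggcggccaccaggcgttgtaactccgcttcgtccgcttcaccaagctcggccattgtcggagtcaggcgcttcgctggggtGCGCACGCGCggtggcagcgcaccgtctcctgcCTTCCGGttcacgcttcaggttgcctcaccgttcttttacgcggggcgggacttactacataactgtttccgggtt
Atp5g3 promoter, chr2:73911297-73911576, minus strand: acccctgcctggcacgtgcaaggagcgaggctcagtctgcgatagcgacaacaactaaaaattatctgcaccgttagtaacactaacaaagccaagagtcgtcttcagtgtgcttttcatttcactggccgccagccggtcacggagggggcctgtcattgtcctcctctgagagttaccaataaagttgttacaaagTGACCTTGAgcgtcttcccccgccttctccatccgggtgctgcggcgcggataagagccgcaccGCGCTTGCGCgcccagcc

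The windows of Cox7b and Cox5a held none of the 5 motifs. The Cycs window held the CRE, the Uqcrc1 window the NRF1 motif, the Sdhd window the NRF1 and ETS motifs, and the Atp5g3 window the ERR element and the NRF1 motif. RefSeq entries were found for 62 of the 78 genes, and 5 of these had 2 windows. The NRF1 motif was in 16 of the 62 (25.8%), against 4.98% of 27025 genes. The ETS motif was also in 16 (25.8%), against 9.48% of all genes, and the CRE in 5 (8.06%), against 1.99%. The ERR element was found in Atp5g3 alone (1.61%, against 0.459%), and the YY1 core in Atp5j alone (1.61%, against 1.22%). In all, 32 of the 62 held at least 1 of the 5 motifs, against 16.1% of all genes.

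The subunit genes together took up a far larger part of the BAT transcriptome than of the IWAT transcriptome. Their summed level was 63440, 57900 and 62430 CPM in BAT WT-NC libraries 1 to 3 and 83170, 91700 and 81840 CPM in BAT KI-HFD. In IWAT it was 12260, 13620 and 11410 CPM in WT-NC and 12210, 17090 and 11720 CPM in KI-HFD. Every BAT library lay far above every IWAT library, the BAT groups did not overlap, and the IWAT groups did. As group means, the sums were 61260 ± 2950 CPM (SD, n = 3) in BAT WT-NC, 85570 ± 5350 in BAT KI-HFD, 12430 ± 1115 in IWAT WT-NC and 13670 ± 2969 in IWAT KI-HFD. They amounted to 6.00%, 7.51%, 1.37% and 1.43% of all gene counts, in the same order. IWAT KI-HFD library 2 was the highest of its depot for the sum of every complex.

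**Figure D1:**
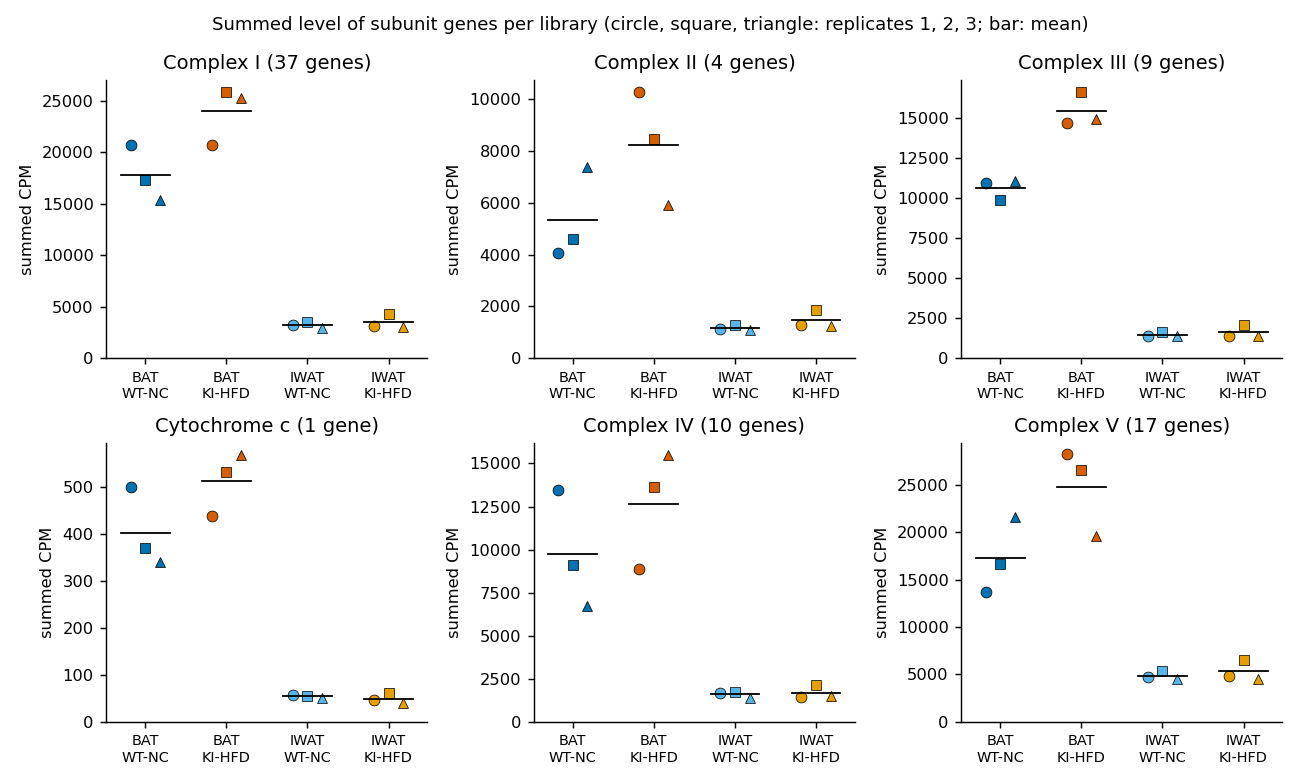
Summed CPM of the nuclear-encoded subunit genes of each complex, on a linear axis from 0, for the 12 libraries in 4 groups; each point is 1 library and each bar the mean of 3. BAT libraries lie above IWAT libraries in every panel, and the KI-HFD and WT-NC libraries of IWAT overlap.

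The BAT excess was not even across the chain. The ratio of the BAT to the IWAT mean of summed CPM in WT-NC was 7.44 for cytochrome c, 7.22 for complex III, 6.06 for complex IV, 5.47 for complex I, 4.56 for complex II and 3.56 for complex V. In KI-HFD these ratios were 10.4, 9.41, 7.47, 6.79, 5.62 and 4.68. Complex V, the ATP synthase, was therefore the lowest of the 6 ratios and complex III and cytochrome c the highest in both conditions, although the sums are weighted to abundant genes and no test was made between complexes. Complex V made up 38.2% to 39.9% of the CPM of the 78 genes in the 6 IWAT libraries and 21.6% to 34.6% in the 6 BAT libraries, without overlap. Complex III made up 17.1% to 18.3% in BAT and 11.3% to 12.3% in IWAT, again without overlap. The shares of complexes I (24.6% to 32.7% in BAT), II (6.40% to 12.4%) and IV (10.6% to 21.2%) spanned those of IWAT (25.5% to 26.7%, 9.10% to 10.95% and 11.8% to 13.7%).

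Gene by gene, 75 of the 78 rose in BAT over IWAT in WT-NC at an adjusted p under 0.05 (edgeR quasi-likelihood test with Benjamini-Hochberg adjustment over 16173 genes), and 0 fell; over all genes tested, 14.2% rose and 12.6% fell. In KI-HFD the same test called 75 higher and 0 lower, with 16.8% of all genes higher and 17.9% lower. The median of the 78 log2 fold changes was 2.55 in WT-NC and 2.79 in KI-HFD, which is 5.84-fold and 6.90-fold, while the median of all genes tested in WT-NC was 0.003. The 3 BAT libraries all lay above the 3 IWAT libraries for 75 of the subunit genes in WT-NC (22.2% of all genes) and in KI-HFD (23.7%). Ndufa4l2 was the exception in the other direction, with its BAT WT-NC libraries all below those of IWAT WT-NC (23.1% of all genes). In KI-HFD 0 of the subunit genes lay wholly below (25.7% of all genes). The log2 fold change was above 0 for 77 of the 78 in WT-NC and 78 in KI-HFD, against 50.1% and 48% of all genes. DESeq2 also called 75 higher in each condition, against 17.6% of all genes in WT-NC and 18.8% in KI-HFD, and 0 lower, against 16.3% and 18.8%. The genes not called by edgeR were Atp5g1, Atp5g3 and Ndufa4l2 in both conditions. The numbers in the names of the deposited count files recur between depots, and what they stand for is not given. Libraries of the same number were also used as a block, which leaves 4 libraries in WT-NC. There 44 of the 78 were called and 31 lost the call. Over all genes, 670 of 16345 were called with this block, against 4337 of 16173 without it. The subunit genes that lost the call included Sdha (edgeR adjusted p = 0.1185), Cox8a (0.0729), Uqcrc2 (0.0566) and Sdhb (0.0524). In KI-HFD 75 were called with the block, beside 4490 of 15721 genes. The same-gene log2 fold changes in WT-NC and KI-HFD, which come from different libraries, had a Pearson correlation of 0.932 and a Spearman correlation of 0.966 over the 78 genes. These are given as a description, since the genes share libraries. The brown adipocyte and skeletal muscle lists are also far higher in BAT, and their part in the depot difference was not tested.

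**Figure D2:**
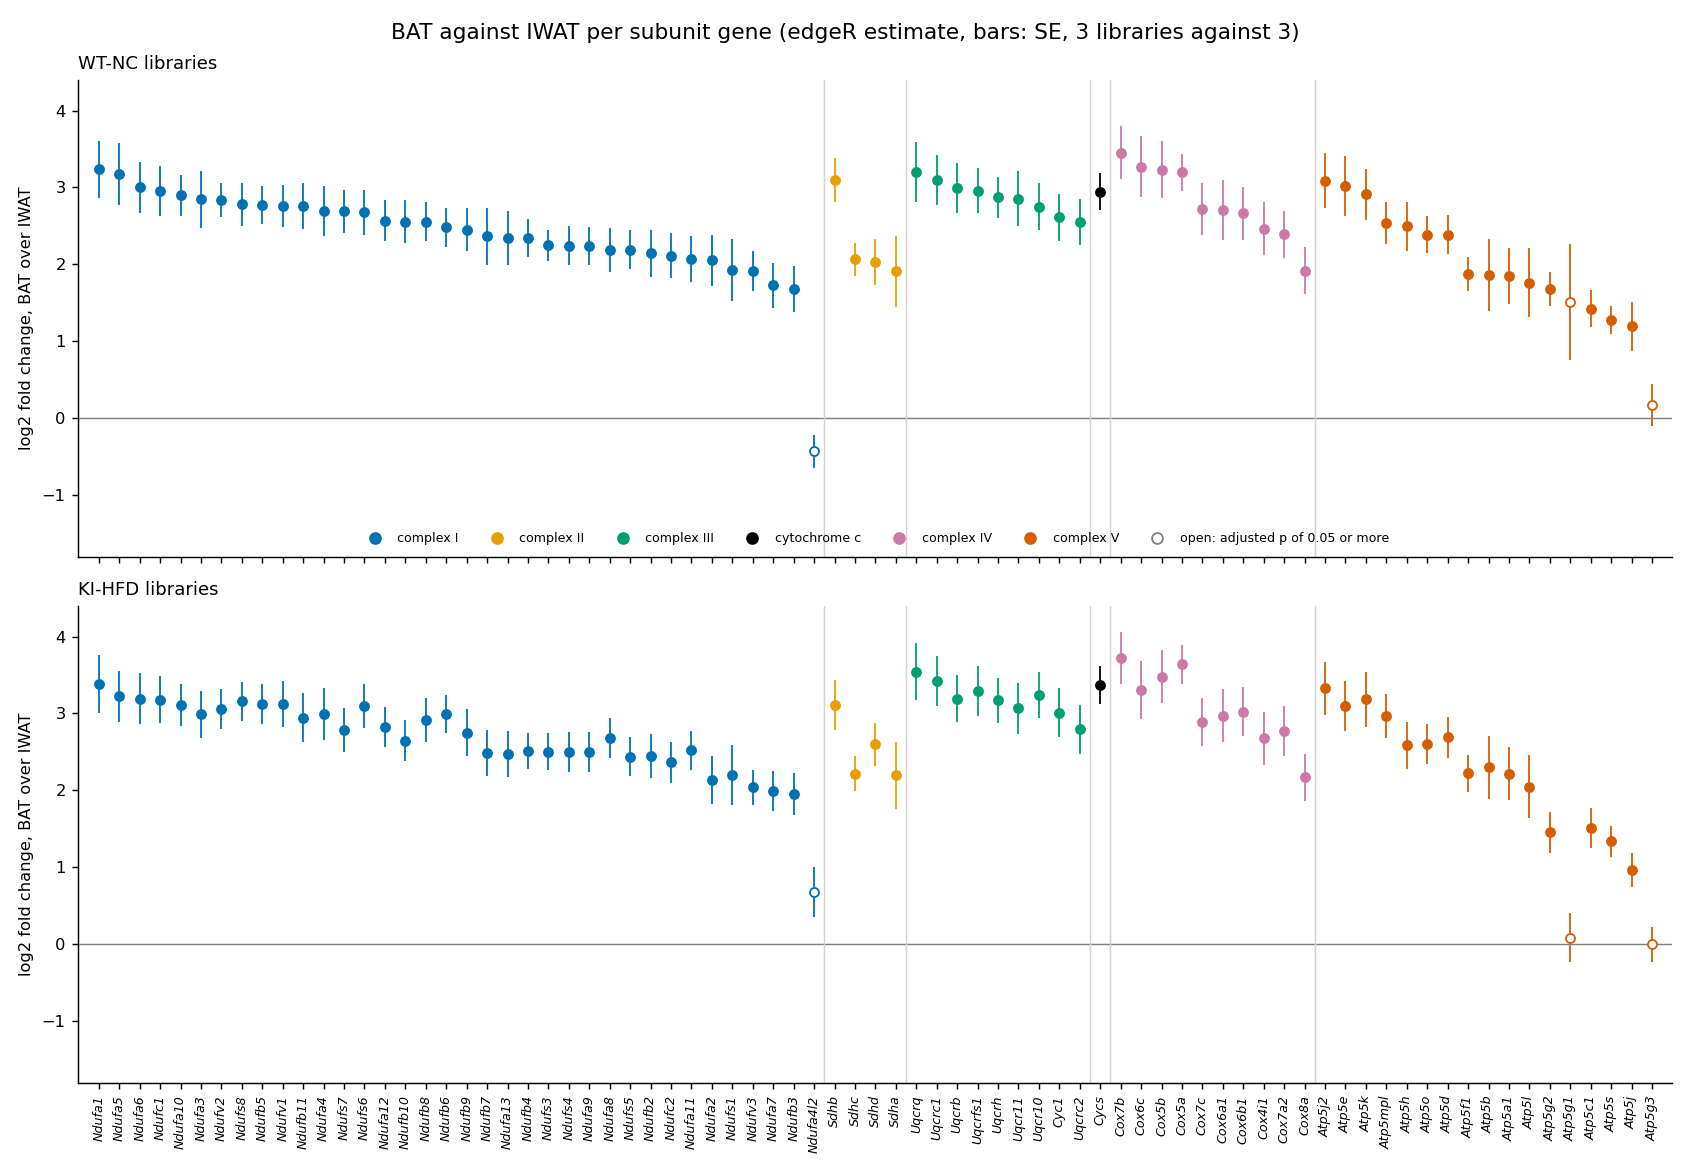
Log2 fold change of BAT over IWAT for 77 of the 78 subunit genes, grouped by complex, in WT-NC and in KI-HFD; points are edgeR estimates, bars are SE (3 libraries against 3) and open points have an adjusted p of 0.05 or more. Nearly every gene lies between 1 and 4, and the open points are Ndufa4l2, Atp5g1 and Atp5g3 in both panels.

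In complex I, which oxidises NADH, 36 of 37 genes rose in BAT in each condition, with a median of 5.59-fold in WT-NC and 6.74-fold in KI-HFD. Ndufv1, the subunit that binds NADH and flavin, stood at 1270, 1333 and 1540 CPM in BAT WT-NC libraries 1 to 3, 2389, 2519 and 1879 in BAT KI-HFD, 193, 243 and 194 in IWAT WT-NC and 239, 320.0 and 213 in IWAT KI-HFD. Every BAT library was above every IWAT library. The log2 fold change of BAT over IWAT was 2.76 (SE 0.27, edgeR adjusted p = 0.000709) in WT-NC and 3.13 (SE 0.30, edgeR adjusted p = 0.000215) in KI-HFD. Ndufs1, the largest iron-sulphur subunit, ranged more widely in BAT, at 349, 469 and 1026 CPM in WT-NC and 1358, 873 and 474 in KI-HFD, against 143, 184 and 172 and 173, 249.8 and 159 in IWAT. Its log2 fold changes were 1.93 (SE 0.41, edgeR adjusted p = 0.0119) and 2.20 (SE 0.39, 0.00308), and the call in WT-NC was lost without IWAT WT-NC library 1 (adjusted p = 0.0575) or 3 (0.0537). The largest depot difference in the complex was that of Ndufa1, a small membrane subunit, at 3.235 in WT-NC and 3.38 in KI-HFD. Apart from Ndufa4l2 the smallest was Ndufb3, an accessory subunit of the membrane arm, at 1.68 and 1.95. Ndufa4 had 2.69 and 3.00, within the range of complex I (medians 2.48 and 2.75) and of complex IV (2.72 and 3.00). These values do not set it apart from either complex.

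Ndufa4l2 did not follow the other genes of the complex. It stood at 11.7, 10.2 and 11.7 CPM in BAT WT-NC libraries 1 to 3, 9.18, 7.75 and 12.7 in BAT KI-HFD, 14.5, 14.0 and 18.05 in IWAT WT-NC and 7.80, 4.94 and 5.63 in IWAT KI-HFD. Its BAT and IWAT levels were thus of the same order, unlike those of Ndufa4. The depot log2 fold change was -0.43 (SE 0.21, edgeR adjusted p = 0.171) in WT-NC and 0.68 (SE 0.33, edgeR adjusted p = 0.141) in KI-HFD, neither past the threshold.

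All 4 genes of complex II, succinate dehydrogenase, rose in BAT in both conditions. Sdhb, the iron-sulphur subunit, stood at 1791, 1510 and 1767 CPM in BAT WT-NC libraries 1 to 3, 2205, 2460 and 2204 in BAT KI-HFD, 197, 232.5 and 183 in IWAT WT-NC and 208, 366 and 218 in IWAT KI-HFD. The depots did not overlap, and the log2 fold change was 3.095 (SE 0.28, edgeR adjusted p = 0.000561) in WT-NC and 3.11 (SE 0.32, 0.000291) in KI-HFD, the largest of the complex. Sdha, the flavoprotein that holds the succinate site, had the smallest, 1.91 (SE 0.46, edgeR adjusted p = 0.0200) and 2.19 (SE 0.43, 0.00484). Its BAT libraries were uneven, at 1168, 1786 and 3902 CPM in WT-NC and 5743, 3781 and 1969 in KI-HFD, while IWAT held 579.9, 682 and 613 in WT-NC. Without IWAT WT-NC library 1, 2 or 3, in turn, the adjusted p of Sdha in WT-NC was 0.0619 to 0.0861.

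All 9 genes of complex III rose, and they rose evenly: the smallest log2 fold change was 2.55 (Uqcrc2, a core subunit) and the largest 3.20 (Uqcrq, a small subunit) in WT-NC, and 2.79 and 3.54 for the same genes in KI-HFD. Uqcrc1, the other core subunit, stood at 2592, 2503 and 3351 CPM in BAT WT-NC libraries 1 to 3, 4675, 4867 and 3669 in BAT KI-HFD, 284, 380.1 and 359 in IWAT WT-NC and 349.6, 496 and 379 in IWAT KI-HFD. No BAT library reached down to the IWAT range. The log2 fold change was 3.09 (SE 0.32, edgeR adjusted p = 0.000785) in WT-NC and 3.42 (SE 0.32, 0.000206) in KI-HFD. Uqcrfs1, the Rieske iron-sulphur protein, had 2.96 and 3.295, and Cyc1, cytochrome c1, 2.61 and 3.01. Cytochrome c itself, Cycs, which carries electrons from complex III to complex IV, stood at 499, 369 and 339.8 CPM in BAT WT-NC libraries 1 to 3, 437, 531 and 567 in BAT KI-HFD, 57.0, 55.6 and 49.8 in IWAT WT-NC and 46.1, 60.8 and 40.8 in IWAT KI-HFD. Its BAT levels lay well above those of IWAT in every library, with a depot difference of 2.94 on the log2 scale (SE 0.24, edgeR adjusted p = 0.000413) in WT-NC and 3.37 (SE 0.25, 9.7e-05) in KI-HFD. No 50-base stretch of the Cycs coding sequence was unique to it among annotated transcripts, so reads from its coding sequence may not have been counted.

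All 10 genes of complex IV, cytochrome c oxidase, rose in BAT. The largest depot difference of all 78 genes was that of Cox7b, a small structural subunit encoded on chromosome X. It stood at 831, 548 and 389 CPM in BAT WT-NC libraries 1 to 3, 509.9, 801 and 900.0 in BAT KI-HFD, 58.5, 59.3 and 49.3 in IWAT WT-NC and 41.6, 71.85 and 53.4 in IWAT KI-HFD. The lowest BAT library was above the highest IWAT library, and the log2 fold change was 3.45 (SE 0.34, edgeR adjusted p = 0.000709) in WT-NC and 3.72 (SE 0.34, 0.000168) in KI-HFD. Cox5a, a matrix-facing structural subunit on chromosome 9, had tighter replicates, at 435, 447 and 337 CPM in BAT WT-NC libraries 1 to 3, 493, 636 and 615 in BAT KI-HFD, 47.1, 51.8 and 38.7 in IWAT WT-NC and 41.6, 56.5 and 41.3 in IWAT KI-HFD. All 6 BAT libraries lay above all 6 IWAT libraries. Its log2 fold changes were 3.195 (SE 0.24, edgeR adjusted p = 0.000365) and 3.64 (SE 0.25, 8.1e-05). Exons of other annotated genes cover 41.7% of the Cox5a transcript, and strand was not used in counting. The deposited tallies of the BAT libraries put 3.26% to 4.05% in an ambiguous class. Whether reads of Cox5a were left out in this way was not tested. Cox6c and Cox5b, at 3.27 and 3.23, completed the 5 genes with the largest differences in WT-NC together with Cox7b, Ndufa1 and Uqcrq. In KI-HFD the 5 were Cox7b, Cox5a, Uqcrq, Cox5b (3.48) and Uqcrc1. Cox4i1, the widely expressed form of the regulatory subunit, had 2.465 and 2.68, Cox6a1 2.71 and 2.97, and Cox7a2 2.39 and 2.77. Cox8a, at 1.92 and 2.17, was the smallest of the complex. The last 3 are the widely expressed forms of subunits that also have heart and muscle forms.

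Complex V, the ATP synthase, had the smallest median of the 5 complexes in both conditions, 3.64-fold in WT-NC and 4.675-fold in KI-HFD, and 15 of its 17 genes rose. Atp5b, the catalytic beta subunit, had the highest group mean per kilobase of transcript of all 78 genes in all 4 groups. This rank did not hold in every BAT library. In BAT WT-NC library 1, Uqcrq (405 bases) held 2100 CPM and was higher per kilobase than Atp5b (1916 bases). Atp5b stood at 4508, 7439 and 12270 CPM in BAT WT-NC libraries 1 to 3 and 15950, 13640 and 8134 in BAT KI-HFD. In IWAT it stood at 2183, 2527 and 2134 in WT-NC and 2313, 3202 and 2074 in KI-HFD. The depots did not overlap, and BAT WT-NC library 1 lay closest to IWAT. The log2 fold change was 1.86 (SE 0.47, edgeR adjusted p = 0.0223) in WT-NC and 2.30 (SE 0.41, 0.00317) in KI-HFD. The WT-NC call of Atp5b was lost without IWAT WT-NC library 1, 2 or 3, in turn (edgeR adjusted p = 0.108, 0.0688 and 0.0955), and with the title number as a block (0.0698). Atp5a1, the alpha subunit, had 1.85 (SE 0.36, edgeR adjusted p = 0.00947) and 2.22 (SE 0.35, 0.00159), with the WT-NC call lost without IWAT WT-NC library 1 (0.0610) or 3 (0.0541). Atp5j2, a small membrane subunit, was the highest of the complex at 3.09 and 3.33. The smallest called differences of all 78 were Atp5j (1.20 in WT-NC and 0.97 in KI-HFD), a stalk subunit, and Atp5s (1.28 and 1.34). Atp5c1, the gamma subunit that turns in the catalytic head, had 1.42 and 1.51. The call of Atp5j was lost in WT-NC without any 1 of BAT WT-NC libraries 1 and 2 and IWAT WT-NC libraries 1, 2 and 3, with library totals as the scale and with the file number as a block, and in KI-HFD without BAT KI-HFD library 2.

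Subunit c, which forms the rotating ring in the membrane, is made from 3 genes whose mature proteins are the same and whose import signals differ. Atp5g3 lay in the same range in both depots, at 384, 525.5 and 303.5 CPM in BAT WT-NC libraries 1 to 3, 338, 397 and 369 in BAT KI-HFD, 373, 414 and 326 in IWAT WT-NC and 334, 451 and 311 in IWAT KI-HFD. The depots overlapped in both conditions. Its log2 fold change was 0.17 (SE 0.27, edgeR adjusted p = 0.664) in WT-NC and 0.002 (SE 0.23, edgeR adjusted p = 0.996) in KI-HFD, and its sign turned under other settings (-0.06 in WT-NC without BAT WT-NC library 2, and -0.04 and -0.24 with library totals as the scale). Every 50-base stretch of the Atp5g3 transcript was unique to it. Atp5g1 stood at 68.4, 199.7 and 13.5 CPM in BAT WT-NC libraries 1 to 3, 42.3, 40.7 and 16.8 in BAT KI-HFD, 35.5, 35.55 and 31.2 in IWAT WT-NC and 32.0, 32.2 and 28.8 in IWAT KI-HFD. The BAT WT-NC libraries spread from below to above the IWAT range, and the log2 fold change was 1.51 (SE 0.75, edgeR adjusted p = 0.167) in WT-NC and 0.09 (SE 0.32, edgeR adjusted p = 0.862) in KI-HFD. Without BAT WT-NC library 3 the value of Atp5g1 in WT-NC was 2.01 and was called (edgeR adjusted p = 0.00475), and in KI-HFD its sign turned under several settings. The order of the libraries for Atp5g1 in BAT WT-NC, with library 2 the highest and library 3 the lowest, and in BAT KI-HFD was also that of the skeletal muscle list, and the part of muscle RNA in its level was not tested. Atp5g2 rose in BAT, by 1.68 (SE 0.22, edgeR adjusted p = 0.00188) and 1.455 (SE 0.26, 0.00331), from 5.765, 6.89 and 5.81 CPM in IWAT WT-NC to 19.6, 20.85 and 16.7 in BAT WT-NC. Of all 50-base stretches, 34.0% of those of Atp5g1 and 0% of those of Atp5g2 were unique, so the counts of both may miss reads. Per kilobase, Atp5g3 stood at 566 ± 157 CPM (SD, n = 3) in BAT WT-NC, Atp5g1 at 157.5 ± 160.5 and Atp5g2 at 43.2 ± 4.77.

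**Figure D3:**
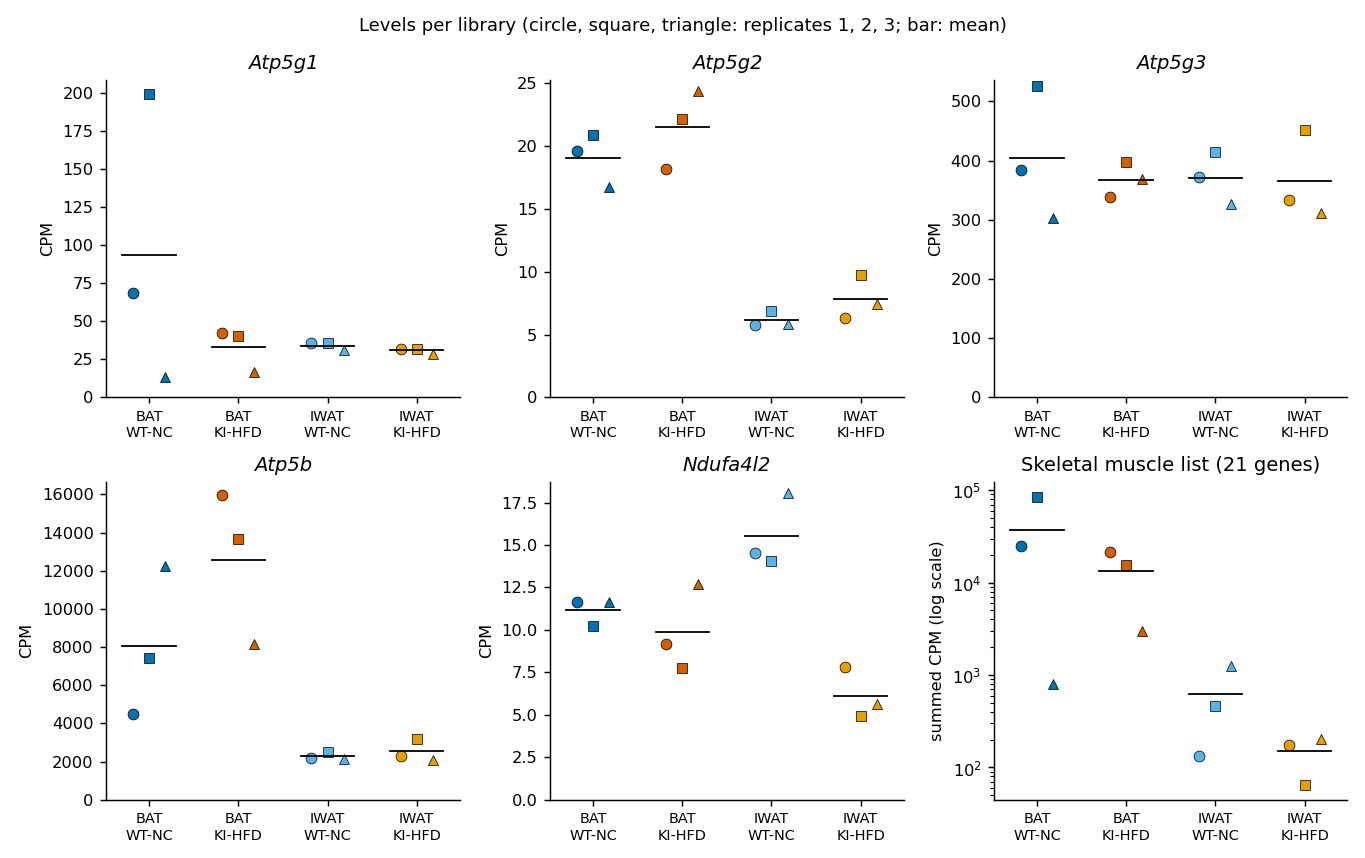
CPM in each of the 12 libraries for the subunit c genes Atp5g1, Atp5g2 and Atp5g3, for Atp5b and Ndufa4l2, and for the summed skeletal muscle list on a log axis; points are libraries and bars are means of 3. Atp5g3 covers much the same range in the 4 groups, Atp5g1 is widely scattered in BAT WT-NC, and Atp5b is higher in BAT.

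Within BAT, the KI-HFD libraries leaned higher than the WT-NC libraries across the chain, but no gene passed the test. The log2 fold change of KI-HFD over WT-NC was above 0 for 74 of the 78 genes, against 50.5% of 15726 genes tested, with a median of 0.34 (1.27-fold) beside a median SE of 0.34 for a gene. edgeR called 0 of the 78 in either direction; it called 0% of all genes higher and 0.0445% lower. At an unadjusted p under 0.05 there was 1 subunit gene, limma-voom called 0, and DESeq2 called 0 beside 0.477% of all genes higher and 1.23% lower. All 3 KI-HFD libraries lay above all 3 WT-NC libraries for 14 subunit genes, which is to be read against 6.68% of all genes, and below them for 0 (6.62% of all genes). These 14 were Ndufv1, Ndufv2, Ndufs3, Ndufa9 and Ndufa10 of complex I, Sdhb, Sdhc and Sdhd of complex II, Uqcrc1, Uqcrfs1 and Cyc1 of complex III, Cox5a of complex IV, and Atp5d and Atp5f1 of complex V. On the scale of all 12 libraries, on which levels are printed, there were 13, since Sdhd then overlapped slightly. In the authors' deposited table of this comparison, 0 of the 78 had an adjusted p under 0.05 (1.47% of all genes), and the smallest was 0.2265 for Ndufv1.

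**Figure D4:**
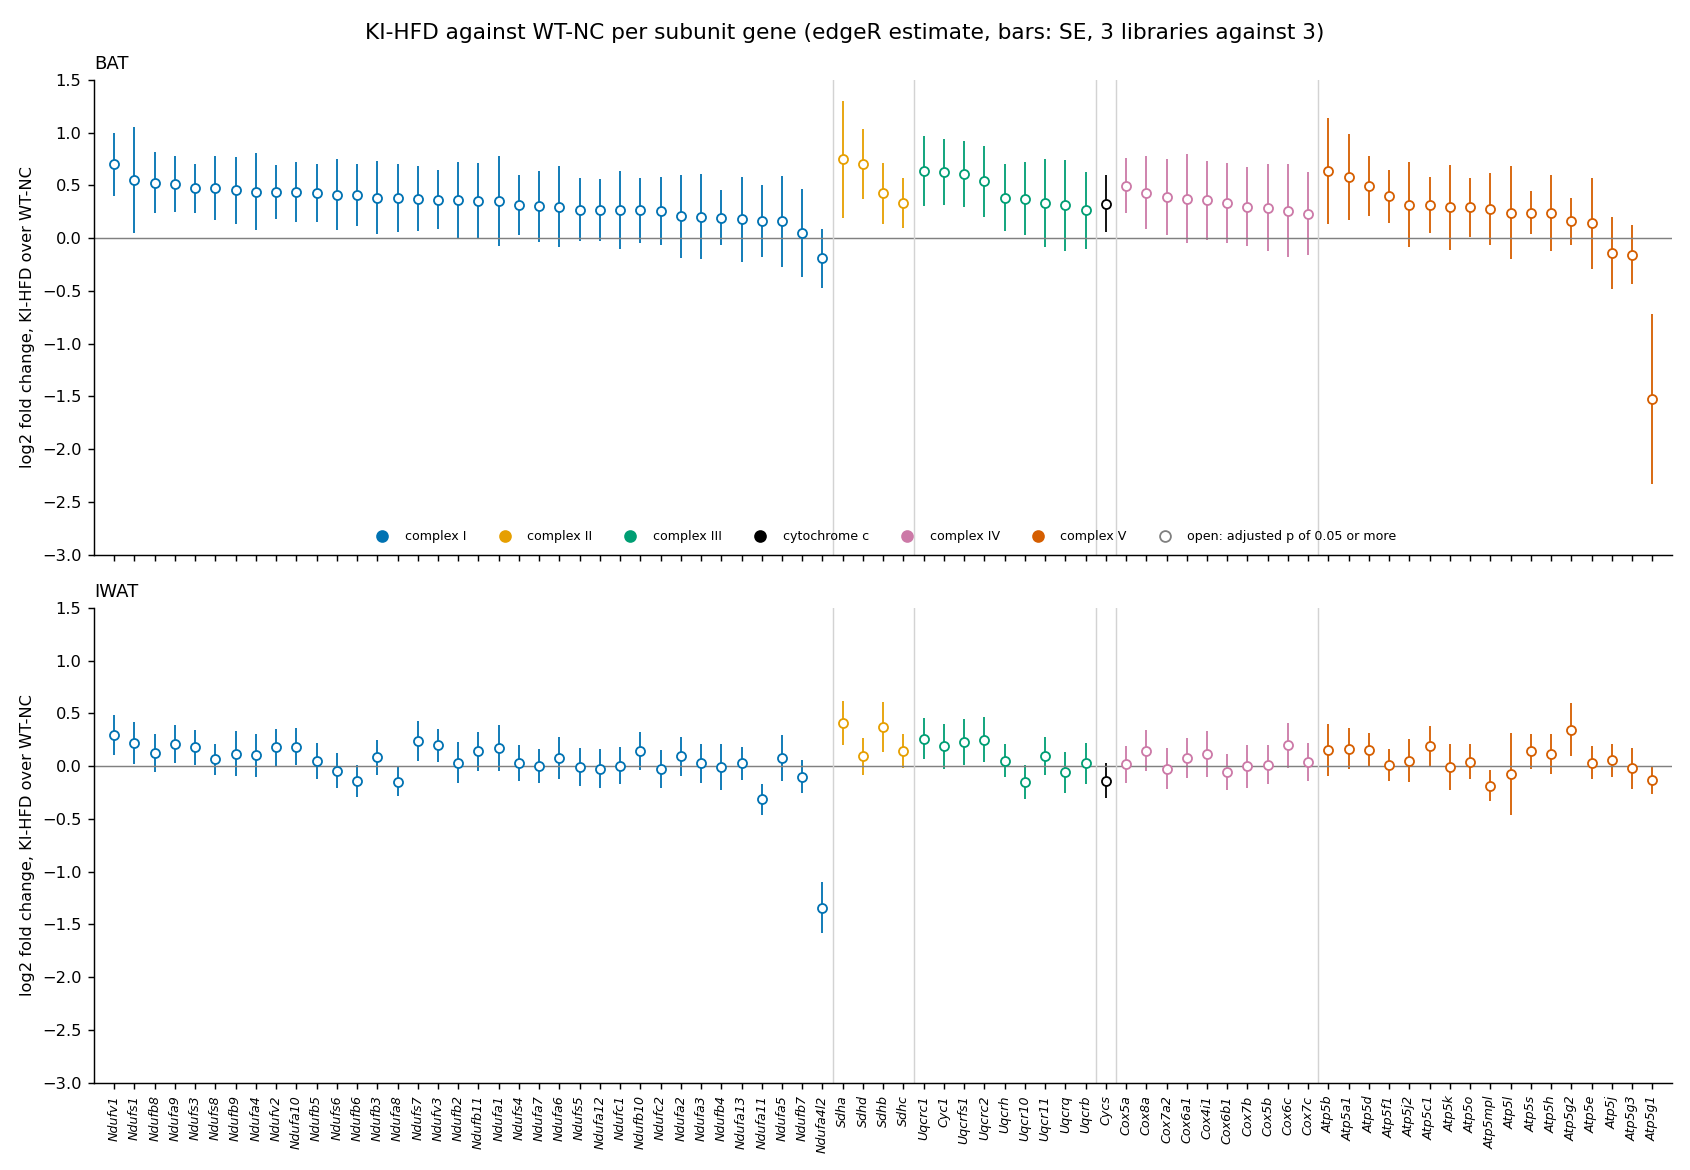
Log2 fold change of KI-HFD over WT-NC for 77 of the 78 subunit genes, by complex, in BAT and in IWAT; points are edgeR estimates and bars are SE. In BAT 73 of the 77 plotted lie above 0 and in IWAT 56, and none passed the threshold in edgeR.

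The smallest p belonged to Ndufv1, whose BAT levels were 1270, 1333 and 1540 CPM in WT-NC and 2389, 2519 and 1879 in KI-HFD. The groups did not overlap, and the log2 fold change was 0.70 (SE 0.30, edgeR adjusted p = 0.629). Sdhd, a membrane anchor of complex II, stood at 658, 901 and 1233 CPM in WT-NC and 1738, 1616 and 1216 in KI-HFD, a log2 difference of 0.70 (SE 0.33, edgeR adjusted p = 0.665). WT-NC library 3 and KI-HFD library 3 met at nearly the same level. The next were Ndufs3, a core subunit of complex I (0.47, SE 0.23, edgeR adjusted p = 0.703), Cyc1 (0.63, SE 0.31, 0.703) and Uqcrfs1 (0.60, SE 0.31, 0.714). The medians were 0.36 for complex I, 0.56 for complex II, 0.38 for complex III, 0.33 for cytochrome c, 0.35 for complex IV and 0.27 for complex V. Within complexes the highest were Sdha (0.74, SE 0.55, edgeR adjusted p = 0.826), Ndufv1, Uqcrc1 (0.63), Atp5b (0.63) and Cox5a (0.50). The lowest were Sdhc (0.33), Ndufa4l2 (-0.19), Uqcrb (0.26), Cox7c (0.23) and Atp5g1 (-1.53, SE 0.81, edgeR adjusted p = 0.726). The value for Atp5g1 depended on WT-NC library 2, without which it was -0.32, while without WT-NC library 3 it was -2.03. The 4 genes below 0 were Ndufa4l2, Atp5g1, Atp5g3 (-0.16) and Atp5j (-0.14).

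Other lists moved with these genes in BAT. The 12 adipocyte markers summed to 17180 to 26010 CPM in WT-NC and 28850 to 34220 in KI-HFD, and the 12 brown adipocyte markers to 8525 to 12230 and 14520 to 17530. The 20 macrophage markers went the other way, from 800 to 3170 CPM in WT-NC to 489 to 712 in KI-HFD. Such a fall was not particular to the macrophage list, which had 0 of 20 genes above 0 (median log2 fold change -1.905). The skeletal muscle list had 0 of 21 above 0 (median -1.68), the fibroblast list 0 of 9 (-1.06) and the lymphocyte list 1 of 9 (-0.70). The endothelial list had 2 of 8 above 0 (-0.05). None of these lists had a gene past the edgeR threshold, and their part in the lean of the subunit genes was not tested. The ratio of the summed CPM of all 78 genes, KI-HFD over WT-NC, was 1.40 on the scaled library sizes. Without that scaling it was 1.25 over library totals, and 1.22 over library totals with the muscle list left out. The value of 1.22 is thus to be read against 1.25. Without BAT WT-NC library 3, 64 of the 78 were above 0 and the median fell to 0.15. Without BAT KI-HFD library 3, 64 were above 0 as well. Without BAT WT-NC library 1 the median was 0.52.

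In IWAT, no subunit gene passed the edgeR test between KI-HFD and WT-NC, and the median difference was near 0. The log2 fold change was above 0 for 57 of the 78 genes, against 55% of 15881 genes tested, and its median was 0.07 beside 0.04 for all genes. edgeR called 0 of the 78 (0% of all genes in either direction), with 1 at an unadjusted p under 0.05. Without KI-HFD library 2, 13 of the 78 were above 0, and without WT-NC library 3, 34 were. The groups failed to overlap for Sdha on the high side (8.27% of all genes) and Ndufa4l2 on the low side (8.31%). Sdha stood at 579.9, 682 and 613 CPM in WT-NC and 719, 1055 and 709 in KI-HFD, a log2 difference of 0.41 (SE 0.21, edgeR adjusted p = 0.531). Sdhb (0.37, edgeR adjusted p = 0.614) and Ndufa11, a membrane-arm subunit (-0.32, 0.502), were also among the 5 smallest p. The remaining extremes of their complexes were Sdhd (0.09), Uqcrc1 (0.26) and Uqcr10 (-0.15), Cox6c (0.20) and Cox6b1 (-0.06), Atp5g2 (0.34) and Atp5mpl (-0.19), and Cycs had -0.14.

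Ndufa4l2 had the smallest p of the 78 genes in IWAT, and its call depended on the tool. Its 3 WT-NC libraries held 14.5, 14.0 and 18.05 CPM and its 3 KI-HFD libraries 7.80, 4.94 and 5.63, with no overlap. The log2 difference was -1.34 (SE 0.24), with an unadjusted p of 0.000653 and an edgeR adjusted p of 0.225, and it stayed between -1.56 and -1.22 when any library was left out. DESeq2 gave an adjusted p of 0.000193, the only one of the 78 it called in IWAT (it called 1.62% of all genes lower and 0.731% higher). The authors' deposited table lists it with a log2 fold change of -1.17 and an adjusted p of 0.00031, again the only one of the 78 called (2.22% of all genes). In BAT it stood at 11.7, 10.2 and 11.7 CPM in WT-NC and 9.18, 7.75 and 12.7 in KI-HFD, which overlap. It was lowest in IWAT KI-HFD library 2, where the lymphocyte list summed to 32.4 CPM. The 8 endothelial markers moved with it in IWAT: they summed to 1177 to 1722 CPM in WT-NC and to 489 to 1015 CPM in KI-HFD, lowest in library 2, and none was at 0. Of the 8, 0 had a log2 fold change above 0 (55% of all genes), 7 lay wholly lower in KI-HFD (8.31%) and 0 were called. Their median was -0.78. Such a fall was not particular to the endothelial list. In IWAT the macrophage list had 0 of 20 above 0 (median -0.68) and the skeletal muscle list 0 of 19 (median -2.77). The adipocyte list had 9 of 12 above 0 and the lymphocyte list 9 of 9. The part of RNA from any of these cell types in the Ndufa4l2 difference was not tested.

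Whether the KI-HFD difference itself differed between depots was tested as an interaction over all 12 libraries. edgeR called 0 of the 78 and 0 of 17395 genes, 831 of which had an unadjusted p under 0.05. DESeq2 called 0 of the 78 (0.0982% of all genes higher and 0.0851% lower). The interaction term, BAT minus IWAT, was above 0 for 74 of the 78 genes, against 47.8% of all genes, with a median of 0.31. It was above 0 for 60 without BAT WT-NC library 3 and for 63 without BAT KI-HFD library 3. Ndufa4l2 had the largest interaction term, 1.16 (SE 0.36), with an unadjusted p of 0.0073 and an edgeR adjusted p of 0.934, and DESeq2 gave 0.288. The next by p were Ndufb6, an accessory subunit of complex I (0.57), Cox5a (0.50), Sdhd (0.62) and Cycs (0.48), each with an edgeR adjusted p of 1. The other extremes of their complexes were Ndufa5 (0.10), Sdhb (0.07), Uqcr10 (0.55) and Uqcrb (0.26), Cox6c (0.09) and Atp5b (0.49). Atp5g1 was the lowest, at -1.36 (SE 0.915, edgeR adjusted p = 1).

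Replicates differed from each other in a way that went with transcript length. The transcripts of the 78 genes run from 366 to 3171 bases, with a median of 786. Relative to the other WT-NC libraries, BAT WT-NC library 3 was lower for 49 of the 50 genes with transcripts under 1000 bases (median log2 difference -0.80), near even for the 22 of 1000 to 2000 bases (0.05), and higher for 5 of the 6 longer ones (0.52). BAT KI-HFD library 1 was similar, with medians of -0.67, 0.06 and 0.34, and was higher for 4 of the 6 longer ones. Thus Cox5b, a short transcript, was lowest in those libraries, at 903, 566 and 370.1 CPM in WT-NC and 492, 816 and 977 in KI-HFD. Sdha, a long transcript, was highest in them. The Spearman correlation between length and the log2 difference over the 78 genes was 0.718 for BAT WT-NC library 3 and 0.732 for BAT KI-HFD library 1, and over all 17395 genes 0.114 and 0.225, given as descriptions. The numbers in the names of the deposited count files fall into a lower and a higher series, and these are the BAT libraries of the higher series; what the numbers stand for is not given. In the higher series of IWAT, WT-NC library 3 and KI-HFD library 3, 74 of the 78 genes were lower than in the other libraries of the group, with medians of -0.24 and -0.26 on the log2 scale. There the Spearman correlation with length over the 78 genes was 0.599 for WT-NC library 3 and -0.421 for KI-HFD library 3, opposite in sign. Because each BAT group holds 1 library of the higher series, the KI-HFD difference could be read within series. In BAT the median log2 difference was 0.36 in the lower series (74 of 78 above 0, 0 called by edgeR, smallest adjusted p = 0.291) and 0.41 in the higher (77 above 0, 1 library a group and no test). The medians of all genes were 0.02 and 0.03. In IWAT the median of the subunit genes was 0.04 in both series, beside -0.006 in the lower and 0.02 in the higher for all genes. The shares of all genes above 0 or called within series are not given here, so these counts lack a baseline. The part of length or series in the spread of BAT was not tested beyond this.

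**Figure D5:**
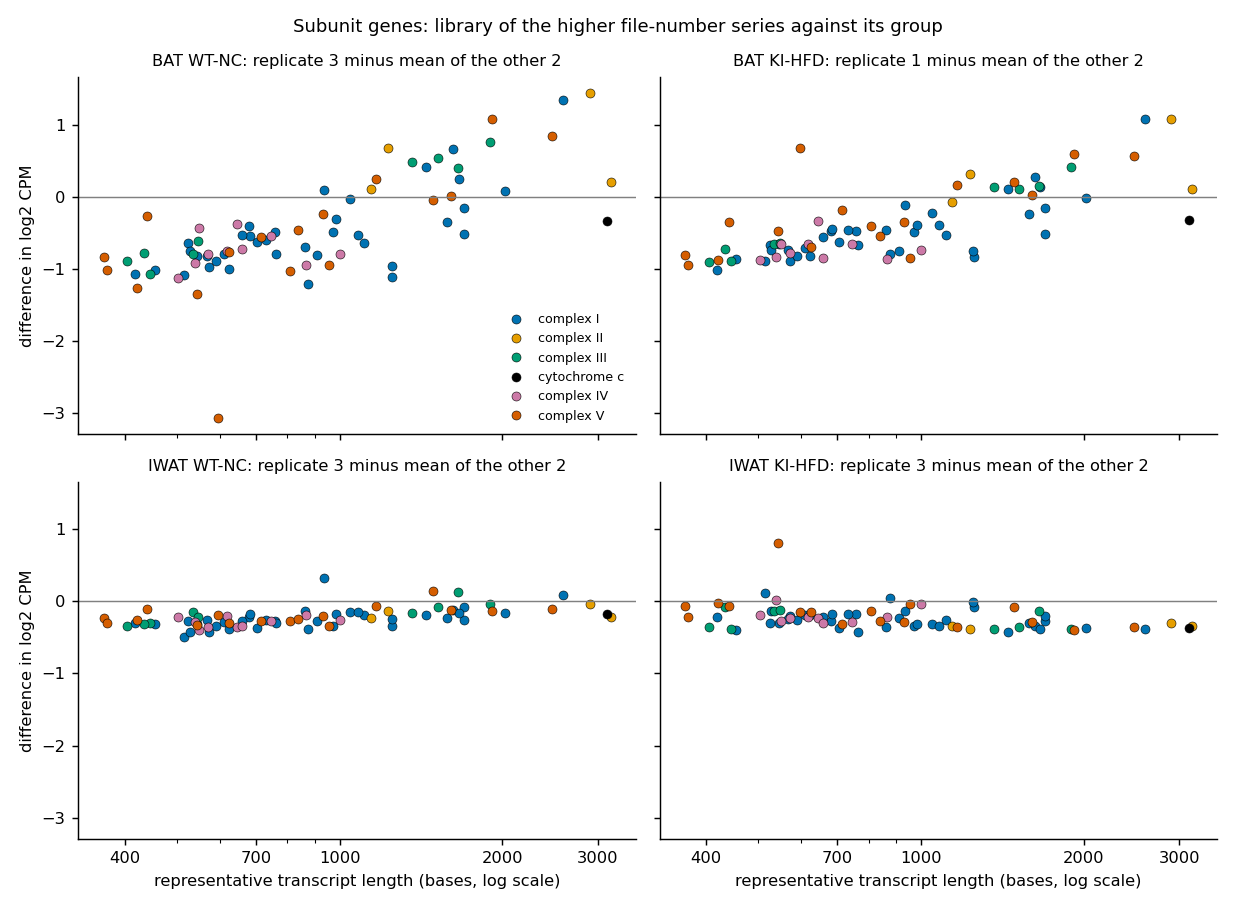
Log2 difference of the higher-series library from the other libraries of its group against transcript length in bases (log axis), 1 point per subunit gene, for the 4 groups. In both BAT groups 49 of the 50 genes with transcripts under 1000 bases lie below 0. Those of 1000 to 2000 bases lie on both sides of it. Of the 6 longer ones, 5 lie above 0 in BAT WT-NC and 4 in BAT KI-HFD.

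Other genes of the pathway were taken from lists of subunit isoforms, mitochondrially encoded subunits, assembly factors, regulators and genes that set proton leak or exchange. Of 10 tissue-restricted or related isoforms, 7 were tested and 6 rose in BAT in both conditions. Here and for the lists that follow, the shares of all genes called between depots were 14.2% higher and 12.6% lower in WT-NC and 16.8% and 17.9% in KI-HFD. Cox7a1, the heart and muscle form of Cox7a, stood at 910.2, 573 and 397 CPM in BAT WT-NC and 2.30, 3.87 and 3.17 in IWAT WT-NC, a log2 fold change of 7.70 in WT-NC and 7.98 in KI-HFD. Cox8b, the heart and muscle form of Cox8, had 6.66 and 6.23, and Cox6a2, the muscle form of Cox6a, 6.38 and 6.20. Cox6a2 stood at 133, 446 and 3.47 CPM in BAT WT-NC, in the order of the skeletal muscle list, whereas Cox7a1 was highest in library 1 and lowest in library 3, as the short subunit genes were. The others called were Ndufab1, the acyl carrier protein of complex I (2.34 and 2.69), Cox6b2 (2.15 and 3.41) and Cox7a2l, a supercomplex assembly factor (1.07 and 1.55), while Cox4i2 was not called (0.12 and 0.39).

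Of the 13 subunits encoded in mitochondrial DNA, mt-Co2, mt-Co3, mt-Atp6, mt-Atp8 and mt-Nd4l were at or near 0 counts in the deposited tables and were not tested. All of the other 8 rose in BAT in both conditions, with a median log2 fold change of 3.86 in WT-NC and 3.68 in KI-HFD. The 4 largest in WT-NC were mt-Nd3 (4.37), mt-Nd2 (4.04), mt-Nd6 (4.025) and mt-Nd4 (4.02). The mt-Nd genes encode complex I subunits, and all of the 8 tested were mt-Nd genes except mt-Co1 and mt-Cytb. Of the assembly factors, which build the complexes, 36 of 47 tested rose in WT-NC (median 1.23) and 40 of 47 in KI-HFD (median 1.54), 0 fell, and 2 of the 49 listed were not tested. The largest were Cox17, a copper chaperone for complex IV (2.75 and 2.83), Lyrm7, which inserts the Rieske protein (2.52 and 2.48), Ndufaf4 (2.21 and 2.51), Uqcc2 in WT-NC (2.13) and Taco1 in KI-HFD (2.13). In BAT KI-HFD against WT-NC, 45 of the 47 were above 0, against 50.5% of all genes, and 0 were called.

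Among 15 transcriptional regulators of mitochondrial genes, 8 rose and 1 fell in BAT in WT-NC, and 10 rose and 2 fell in KI-HFD. Perm1, a regulator induced by PGC-1 proteins, had 6.11 and 7.19, Ppara 4.68 and 4.36, Esrrb 4.02 and 4.73, and Ppargc1b 3.65 and 3.33. Nrip1, a corepressor of oxidative genes, fell (-1.69 and -2.12), as did Pprc1 in KI-HFD (-1.09). Of 10 genes for uncoupling, nucleotide and phosphate exchange or electron entry, 7 rose and 0 fell in WT-NC, and 8 rose and 1 fell in KI-HFD. Ucp1 had 9.35 (SE 1.205) and 10.72 (SE 0.63), Gpd2, the glycerol phosphate dehydrogenase that feeds ubiquinone, 4.54 and 4.34, Slc25a4, an adenine nucleotide carrier, 2.52 and 1.945, and Etfdh, which passes electrons from fatty acid oxidation to ubiquinone, 2.30 and 3.03. Slc25a4 stood at 1086, 2183 and 525 CPM in BAT WT-NC libraries 1 to 3 and at 1084, 1081 and 707 in BAT KI-HFD. In both groups this was the order of the skeletal muscle list, and the part of muscle RNA in its level was not tested. Ucp2 fell in KI-HFD (-1.24). edgeR called none of the genes of these 5 lists between KI-HFD and WT-NC in either depot.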

How the data were processed

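Poly-A RNA was sequenced without strand information, per the labels' protocols. FastQC, STAR, HTSeq and DESeq2 and the build GRCm38.p5 are named in the submitters' processing notes, without versions. The authors deposited whole-number counts per gene and library, and 1 table per depot of their own KI against WT comparison, whose columns, per the file headers, are the mean signal of each gene (base mean), the log2 fold change and its SE, the Wald score, and the p-value with its adjusted value. Those values were only copied.

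Gene names, positions and transcript lengths were matched by identifier to GENCODE M21. Levels are CPM after TMM scaling over 12 libraries. Counts were tested with the edgeR 4.0.16 quasi-likelihood test (R 4.3.3) after filterByExpr with a minimum count of 10, separately for each comparison of 6 libraries and over all 12 for the interaction, with Benjamini-Hochberg adjustment over all genes tested and a threshold of 0.05, two-sided. The SE given with edgeR values was derived from the test, as the absolute log2 fold change divided by the square root of the F statistic. An exact permutation test of 3 against 3 cannot go below 0.1. DESeq2 1.42.0, limma-voom (limma 3.58.1), other scalings, no filter, left-out libraries, replicate blocks and file-number series were alternatives. The scripts were tested on simulated counts. Unique 50-base stretches are those found in no other gene's annotated transcripts. Counts without a strand cannot separate overlapping genes.

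The 78 genes and the lists were chosen with earlier results of these data known. Genes named are core subunits of each complex, the 5 with the largest change past the threshold (or the smallest p) per comparison, the highest and lowest of each complex, genes at the edge of the symbol rule, all tested isoforms, and up to 4 of each other list. 1 of the genes this rule names is not reported here by name and is left out of the gene-by-gene plots. No replicates were alike within counting noise. Same-numbered samples did not deviate together, which cannot show that they came from different mice. The main tests used no pairing.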

Additional observations from a re-analysis of the deposited data

How the results depend on the processing

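Each of the 78 genes was refitted between depots under every alternative run: in WT-NC 1115 gene values kept their direction and side of the threshold, 52 lost the threshold (31 of them with the file number as a block), 1 gained it and 2 changed sign, and in KI-HFD these were 1157, 1, 0 and 12. Of the 33 gene values followed in the KI-HFD comparisons and the interaction (smallest p and extremes of each complex), 485 refits kept both, 0 lost the threshold, 1 gained it and 6 changed sign. In BAT over IWAT in WT-NC, 69 to 76 subunit genes were called higher when any library was left out. Their median log2 fold change was 2.32 to 2.67. The number of all genes called in these fits, in either direction, was 1911 (of 16883) to 6969 (of 17102). In KI-HFD 74 to 75 subunit genes were called, with a median of 2.66 to 3.00. There the number of all genes called was 3463 (of 16354) to 5243 (of 16586). With library totals as the scale, the KI-HFD median was 2.55, all genes shifted by -0.22 in WT-NC, -0.30 in KI-HFD and -0.14 in BAT KI-HFD against WT-NC, and the ratio of summed CPM of BAT to IWAT in WT-NC was 4.365. The summed ratio of BAT KI-HFD to WT-NC was 1.253 with library totals and 1.22 with library totals less the muscle list, both without TMM scaling. With TMM scaling it was 1.35 to 1.43 over left-out libraries. The ranges of the other summed ratios were 5.84 to 7.15 for the depots in KI-HFD, 4.73 to 5.18 for the depots in WT-NC and 0.963 to 1.18 in IWAT.

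The median of BAT KI-HFD against WT-NC was 0.15 to 0.52 over left-out libraries, that of the interaction 0.14 to 0.50, and that of IWAT -0.11 to 0.16 (-0.01 with library totals). DESeq2 called 1 subunit gene lower in IWAT, Ndufa4l2. In BAT KI-HFD against WT-NC, edgeR called 7 of all genes, DESeq2 269 and edgeR without a filter 207.

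Signs turned for a few genes when a library was left out, with the ranges over all left-out libraries: Cox7c in BAT KI-HFD against WT-NC (-0.0267 to 0.588), Cox6b1 (-0.244 to 0.0217), Cox6c (-0.0853 to 0.352) and Sdhd (-0.0884 to 0.212) in IWAT, and Atp5g3 between depots (-0.0642 to 0.341 in WT-NC and -0.113 to 0.188 in KI-HFD). Atp5g3 was also below 0 with library totals (-0.0441 in WT-NC and -0.24 in KI-HFD) and with no filter (-0.0264 in KI-HFD). Atp5g1 between depots in KI-HFD was -0.118 to 0.405 over left-out libraries, -0.184 with library totals, -0.0179 with limma-voom, and -0.0156 and -0.0128 with the title and file numbers as a replicate block. The cause was not tested.

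The replicate numbers of the titles gave correlations of -0.311 to 0.303 between same-numbered samples (18 pairs). For the file numbers shared across depots they were -0.115 to 0.0674. Such correlations cannot show whether same-numbered BAT and IWAT samples came from the same mouse. Each file number that recurs was in the same group of genotype and diet in both depots. With the title number as a replicate block, 74 subunit genes were called between depots in WT-NC and 75 in KI-HFD. Over all genes, 3896 of 16173 and 5325 of 15721 were called. The medians of the subunit genes were 2.50 and 2.79 between depots, 0.38 in BAT, 0.06 in IWAT and 0.33 for the interaction. With the file number as a block, which leaves 4 libraries in WT-NC, 44 were called there and 75 in KI-HFD. Over all genes, this block called 670 of 16345 in WT-NC and 4490 of 15721 in KI-HFD. Depth was 17408621 to 23514095 counts a library; the part of depth or of the spread between BAT libraries in the number of calls was not tested.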

Other observations

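Ndufb1-ps, which GENCODE M21 types as a non-coding RNA and which the symbol rule therefore leaves out, carries the name of a complex I subunit and behaved between depots as the subunit genes did. It stood at 232, 164 and 83.9 CPM in BAT WT-NC libraries 1 to 3 and at 112.5, 181 and 225 in BAT KI-HFD, against 25.3 to 39.7 CPM in IWAT. Its log2 fold change of BAT over IWAT was 2.29 (SE 0.37, edgeR adjusted p = 0.0041) in WT-NC and 2.38 (SE 0.30, edgeR adjusted p = 0.000615) in KI-HFD, and that of KI-HFD over WT-NC in BAT was 0.09 (SE 0.41, edgeR adjusted p = 0.98).

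In group means per kilobase of transcript, the order of the subunit genes differed between the depots. In IWAT WT-NC, Atp5g3 stood at 519.6 ± 61.3 CPM per kilobase (SD, n = 3) and came after Atp5b (1191 ± 112) and Cox4i1. In BAT WT-NC, where Atp5g3 held 566 ± 157, the genes after Atp5b (4213 ± 2045) were Uqcrq, Cox6a1 and Cox4i1. The order varied between BAT libraries, and in BAT WT-NC library 1 Uqcrq came before Atp5b.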
